A study of Mus musculus with 10 samples.

Results

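A set of 10 genes that extracellular signal-regulated kinase (ERK) signalling switches on and that in part act back on it were followed in cultured mouse neural tube explants: Spry1, Spry2, Spry4, Spred1, Spred2, Dusp4, Dusp6, Etv1, Etv4 and Etv5. They were taken by name from a table of 42465 gene models, and all 10 were found, each as a single model. The explants came from Ednrb-/- or wild-type (WT) embryos at embryonic day 9.5, contained neural crest cells, and were cultured for 4 days in DMEM that held EDN3 at 20 nM and fetal bovine serum at 10%. EDN3 is the peptide that activates the receptor encoded by Ednrb. Each genotype had 5 biological replicates per the labels, which do not say how many embryos made a replicate, so p-values measure the spread between these libraries. Both genotypes had the ligand in the medium, and neither the Ednrb allele, nor the strain, nor the axial level of the tube is given in the labels. The study's title names the receptor, Aim2 and AKT in melanoblast proliferation, melanoblasts being the cells that give rise to melanocytes.

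ERK is the last kinase of the cascade that runs from receptor tyrosine kinases and G protein-coupled receptors through Ras, Raf and MEK. Its activation induces the genes of its own inhibitors, so their transcripts are widely used as a readout of recent pathway activity. Sprouty and Spred proteins act at the level of Ras and Raf, the dual specificity phosphatases DUSP4 and DUSP6 remove the activating phosphates from ERK, and the PEA3 factors ETV1, ETV4 and ETV5 are Ets transcription factors that FGF signalling induces in many embryonic tissues. In the neural crest the same cascade lies below FGF, neuregulin, KIT and endothelin receptors.

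Of the 10 genes, 7 were lower in Ednrb-/- explants and none was higher by limma-trend on log2(FPKM + 0.5) (Benjamini-Hochberg over the 15156 genes tested, threshold 0.05). In the same fit 13.0% of all genes tested were lower and 6.53% higher, or 1966 and 990 genes. Under quantile normalization the split was 1730 lower and 1603 higher, with 7 of the 10 genes called as before. The genes that fell were Spry1, Spry2, Spry4, Spred1, Dusp6, Etv4 and Etv5, while Spred2, Dusp4 and Etv1 did not pass. In FPKM (reads scaled by gene length and library size), the mean of Spry4 in Ednrb-/- libraries was 18.6% of that in WT libraries, that of Dusp6 29.7%, that of Etv4 32.7%, that of Etv5 34.4%, that of Spry1 45.4%, that of Spry2 65.2% and that of Spred1 74.8%. The median log2 fold change of the 10 was -0.86, against 0.0048 over all genes tested. The 5 genes Spry4, Dusp6, Etv4, Etv5 and Spred1 were lower in every Ednrb-/- library than in any WT library, a pattern seen in 8.44% of all genes tested. Leaving out any 1 library gave 7 or 8 called genes of the 10.

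**Figure D1:**
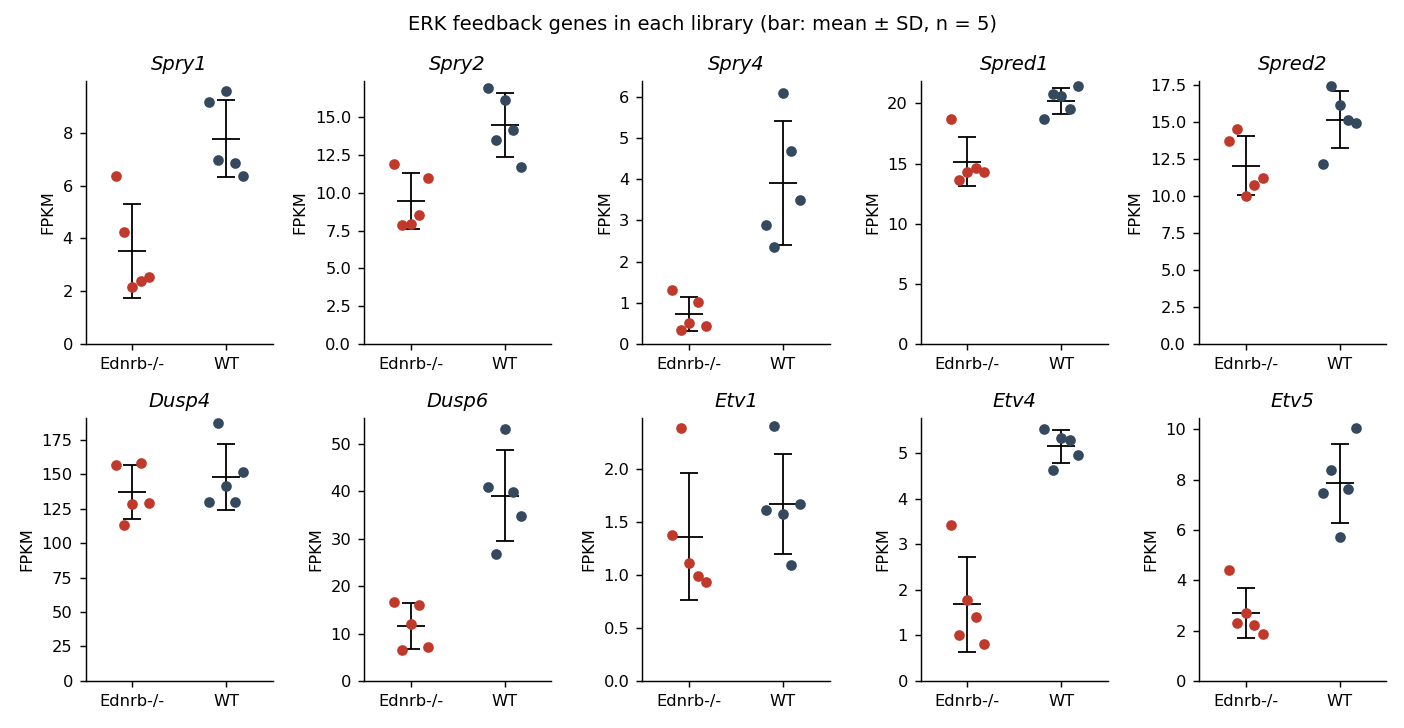
FPKM of each of the 10 genes (vertical axis) in the 5 Ednrb-/- and 5 WT libraries, 1 point per library, with the mean and SD as bars. Spry4, Dusp6, Etv4, Etv5 and Spred1 have no overlap between genotypes, whereas the Dusp4 points lie between 114 and 187 FPKM with overlapping genotypes.

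Reads assigned to gene models numbered between 13022266 and 19532570 per library, as worked back from the FPKM values and gene lengths. Ednrb itself was lower in every Ednrb-/- library, at 2.34 to 11.7 FPKM, against 43.8 to 60.7 FPKM in WT libraries (limma, log2 fold change -2.92, adjusted p = 0.00238). Neuronal markers were present in every library. Tubb3, a neuronal tubulin, lay between 877 and 1061 FPKM in Ednrb-/- and between 518 and 809 FPKM in WT. On the first principal component, which holds 47.5% of the variance, Ednrb-/- replicate 4 and WT replicate 2 lay nearest to each other across the genotypes, and Ednrb-/- replicate 2 stood apart on the second. In a bulk sample, fewer cells of a type and less RNA per cell cannot be told apart.

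Promoters of 4 of the genes are shown because ETV1, ETV4 and ETV5 are themselves Ets factors, whose sites hold a GGAA core. Capitals mark matches of either strand to CGGAAG, a 6-base form of the Ets core. Other forms of the core were not searched, and GGAA occurs unmarked, as in the Dusp6 and Spred2 windows. A promoter without a match thus lacks CGGAAG and may still hold another Ets site. RefSeq promoter entries in GRCm38.p6, from 250 bases before to 50 after the start, were matched by symbol for 7 of the 10 genes, with 9 starts in all. Dusp6 and Spred1 fell and have matches. Etv5 fell and has no match in either of its 2 starts (the more upstream one is shown). Spred2 did not pass but has a match. Among genes not shown, Spry1 and Spry2 fell and have no match, and Etv1 did not pass and has none in either start. Spry4, Dusp4 and Etv4 had no promoter entry.
Dusp6, chr10:99262981-99263280, plus strand: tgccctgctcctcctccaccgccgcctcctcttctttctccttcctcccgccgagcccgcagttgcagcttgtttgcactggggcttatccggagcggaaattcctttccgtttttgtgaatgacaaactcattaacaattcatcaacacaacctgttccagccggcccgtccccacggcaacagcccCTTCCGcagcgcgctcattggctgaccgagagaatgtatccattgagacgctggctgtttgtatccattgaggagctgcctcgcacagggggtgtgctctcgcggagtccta
Spred1, chr2:117120821-117121120, plus strand: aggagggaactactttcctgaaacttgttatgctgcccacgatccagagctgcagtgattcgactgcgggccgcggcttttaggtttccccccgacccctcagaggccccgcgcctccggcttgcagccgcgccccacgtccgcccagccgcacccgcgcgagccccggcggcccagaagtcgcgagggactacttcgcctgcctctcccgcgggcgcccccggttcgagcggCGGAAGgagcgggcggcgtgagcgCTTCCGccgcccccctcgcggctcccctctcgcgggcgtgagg
Etv5, chr16:22439521-22439820, minus strand: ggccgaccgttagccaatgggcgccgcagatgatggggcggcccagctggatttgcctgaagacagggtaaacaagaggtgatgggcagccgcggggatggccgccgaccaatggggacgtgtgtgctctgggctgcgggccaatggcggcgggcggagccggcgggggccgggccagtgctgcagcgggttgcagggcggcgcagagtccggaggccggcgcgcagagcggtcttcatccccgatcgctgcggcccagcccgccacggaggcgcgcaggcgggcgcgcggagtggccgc
Spred2, chr11:19924192-19924491, plus strand: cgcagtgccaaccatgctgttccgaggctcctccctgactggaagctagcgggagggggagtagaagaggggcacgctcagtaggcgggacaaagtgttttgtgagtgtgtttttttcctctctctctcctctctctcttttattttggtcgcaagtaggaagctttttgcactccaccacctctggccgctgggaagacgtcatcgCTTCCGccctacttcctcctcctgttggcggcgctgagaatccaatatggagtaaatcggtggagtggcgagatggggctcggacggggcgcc
The match lay 62 bases before the start in Dusp6 and 43 bases before it in Spred2, counted to its first base, and Spred1 had 1 match 17 bases before and another at base 8 after the start. Of the 9 promoters 3 held CGGAAG, against 16.9% of the 32851 promoters in the table. None of the 9 held TGANTCA, an AP-1 site (7.81% of all promoters), or TGACGTCA, a cyclic AMP response element (1.79%). Both strands were searched, the motifs do not overlap each other, and a match is a description of the letters in this window.

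The Sprouty genes encode membrane-associated inhibitors of Ras and Raf activation. Spry4 and Dusp6 had the lowest log2 fold changes of the 10 genes, except in the fit adjusted for smooth muscle level, where Etv5 and Etv4 did. Their order depends on the setting, as Dusp6 had the lower one with a pseudocount of 1 (-1.73, against -1.49 for Spry4), under quantile normalization (-1.74, against -1.62 for Spry4) and without Ednrb-/- replicate 3 (-1.81, against -1.79 for Spry4). Spry4 had 1.31, 0.351, 0.512, 1.03 and 0.436 FPKM in Ednrb-/- replicates 1 to 5, against 2.88, 2.37, 6.09, 4.69 and 3.50 FPKM in WT replicates 1 to 5. The lowest WT library was above the highest Ednrb-/- library, and the values rest on 21 to 119 reads in Ednrb-/- and 168 to 439 reads in WT libraries. The means were 0.728 ± 0.420 FPKM in Ednrb-/- and 3.91 ± 1.496 FPKM in WT libraries (SD, n = 5 each), and the log2 fold change was -1.84 with a standard error of 0.28 (limma, adjusted p = 0.00310). This places Spry4 at rank 357 from the lowest of the 15156 fold changes.

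Spry1 had 6.36, 4.23, 2.16, 2.39 and 2.53 FPKM in Ednrb-/- replicates 1 to 5, against 9.15, 6.96, 9.57, 6.86 and 6.35 FPKM in WT replicates 1 to 5. The genotypes met at 1 point, where Ednrb-/- replicate 1 lay just above the lowest WT library, replicate 5, and the other 4 Ednrb-/- libraries lay below every WT library. The means were 3.53 ± 1.78 FPKM in Ednrb-/- and 7.78 ± 1.47 FPKM in WT libraries (SD, n = 5 each; limma, log2 fold change -1.12, standard error 0.25, adjusted p = 0.0108). An opposite-strand model overlaps Spry1 over 710 bases, but its highest value in any library was 0.170 FPKM.

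Spry2 is a chromosome 14 gene of the minus strand (106604157 to 106609886 in the deposited coordinates), 2.20 Mb from Ednrb. Its levels were 11.9, 7.88, 7.91, 8.55 and 11.0 FPKM in Ednrb-/- replicates 1 to 5, against 16.9, 13.5, 16.1, 14.1 and 11.7 FPKM in WT replicates 1 to 5. Ednrb-/- replicate 1 and WT replicate 5 were nearly level, and 4 of the 5 Ednrb-/- libraries were below all WT libraries. The means were 9.44 ± 1.87 FPKM in Ednrb-/- and 14.5 ± 2.08 FPKM in WT libraries (SD, n = 5 each; limma, log2 fold change -0.60, standard error 0.14, adjusted p = 0.0135). Of the 18 gene models between Ednrb and Spry2, 7 were tested, of which 1 was lower and 1 higher in Ednrb-/-. Over all genes tested, 13.0% were lower and 6.53% higher.

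Spred proteins carry a Sprouty-like domain and bring neurofibromin, the Ras GTPase activator encoded by Nf1, to the membrane. Spred1 had 18.7, 13.6, 14.3, 14.7 and 14.3 FPKM in Ednrb-/- replicates 1 to 5, against 18.7, 20.8, 20.6, 19.6 and 21.4 FPKM in WT replicates 1 to 5. Ednrb-/- replicate 1 and WT replicate 1 were almost equal, with 18.71 and 18.74 FPKM, while the other 4 Ednrb-/- libraries lay well below the WT range. The means were 15.1 ± 2.04 FPKM in Ednrb-/- and 20.2 ± 1.07 FPKM in WT libraries (SD, n = 5 each; limma, log2 fold change -0.41, standard error 0.09, adjusted p = 0.0109). The values rest on 1206 to 2513 reads in Ednrb-/- and 1963 to 2202 reads in WT libraries.

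Spred2 had 13.7, 14.5, 10.0, 10.7 and 11.2 FPKM in Ednrb-/- replicates 1 to 5, against 12.2, 17.4, 16.1, 15.2 and 14.9 FPKM in WT replicates 1 to 5. WT replicate 1 lay within the Ednrb-/- range and the genotypes overlapped. The means were 12.1 ± 1.97 FPKM in Ednrb-/- and 15.2 ± 1.92 FPKM in WT libraries (SD, n = 5 each), and the log2 fold change of -0.32, with a 95% interval of -0.60 to -0.05, did not pass (limma, adjusted p = 0.0970). It passed without WT replicate 1 (limma, adjusted p = 0.0445) and with array weights (limma, adjusted p = 0.0343). Spred3, the remaining Spred gene, had 6.15 ± 1.69 FPKM in Ednrb-/- and 9.06 ± 1.69 FPKM in WT libraries (SD, n = 5 each; limma, adjusted p = 0.0567), and is named after its values were seen.

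Of the phosphatase genes, Dusp6 fell and Dusp4 did not pass. DUSP6 is a cytoplasmic phosphatase selective for ERK, and DUSP4 is a nuclear one that acts on ERK and other MAP kinases. Dusp6 had 16.6, 6.42, 12.0, 16.1 and 7.11 FPKM in Ednrb-/- replicates 1 to 5, against 41.0, 26.9, 53.2, 39.8 and 34.8 FPKM in WT replicates 1 to 5. Every Ednrb-/- library was below every WT library, with WT replicate 2 the lowest of its group. The means were 11.6 ± 4.79 FPKM in Ednrb-/- and 39.1 ± 9.65 FPKM in WT libraries (SD, n = 5 each; limma, log2 fold change -1.77, standard error 0.27, adjusted p = 0.00313).

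Dusp4 was the most abundant of the 10 genes in both genotypes. It had 157, 114, 128, 158 and 129 FPKM in Ednrb-/- replicates 1 to 5, against 130.1, 187, 141, 129.7 and 152 FPKM in WT replicates 1 to 5. Ednrb-/- replicates 2, 3 and 5 were below the lowest WT library, replicate 4, by less than 1 FPKM in the case of replicate 5, and the other 2 Ednrb-/- libraries lay within the WT range. The means were 137 ± 19.6 FPKM in Ednrb-/- and 148 ± 23.8 FPKM in WT libraries (SD, n = 5 each; limma, log2 fold change -0.11, 95% interval -0.39 to 0.17, adjusted p = 0.605). Dusp4 made up 70.2 ± 2.60% of the summed FPKM of the 10 genes in Ednrb-/- and 56.0 ± 5.38% in WT libraries (SD, n = 5 each). The sum of the other 9 ran from 50.3 to 77.8 FPKM in Ednrb-/- libraries and from 103 to 134 FPKM in WT libraries.

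The PEA3 factors likewise divided, with Etv4 and Etv5 lower and Etv1 not called. Etv4 had 3.43, 1.01, 1.78, 1.40 and 0.809 FPKM in Ednrb-/- replicates 1 to 5, against 5.53, 4.63, 5.33, 5.28 and 4.95 FPKM in WT replicates 1 to 5. The WT libraries were close together, while those of Ednrb-/- were spread over a wider range below them, with replicate 1 the highest. The means were 1.68 ± 1.04 FPKM in Ednrb-/- and 5.15 ± 0.355 FPKM in WT libraries (SD, n = 5 each; limma, log2 fold change -1.48, standard error 0.26, adjusted p = 0.00412).

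Etv5 had 4.42, 2.30, 2.70, 2.21 and 1.87 FPKM in Ednrb-/- replicates 1 to 5, against 7.48, 8.39, 5.70, 7.63 and 10.0 FPKM in WT replicates 1 to 5. No Ednrb-/- library reached the lowest WT library, replicate 3. The means were 2.70 ± 1.01 FPKM in Ednrb-/- and 7.85 ± 1.57 FPKM in WT libraries (SD, n = 5 each; limma, log2 fold change -1.41, standard error 0.20, adjusted p = 0.00276).

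Etv1 had 1.38, 2.39, 1.11, 0.992 and 0.939 FPKM in Ednrb-/- replicates 1 to 5, against 1.62, 2.40, 1.58, 1.09 and 1.67 FPKM in WT replicates 1 to 5. Replicate 2 was the highest of each genotype and the ranges overlapped. The means were 1.36 ± 0.597 FPKM in Ednrb-/- and 1.67 ± 0.471 FPKM in WT libraries (SD, n = 5 each; limma, log2 fold change -0.25, 95% interval -0.75 to 0.26, adjusted p = 0.498). With 94 to 219 reads per library, the interval still includes a fall as large as that of Spry2.

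**Figure D2:**
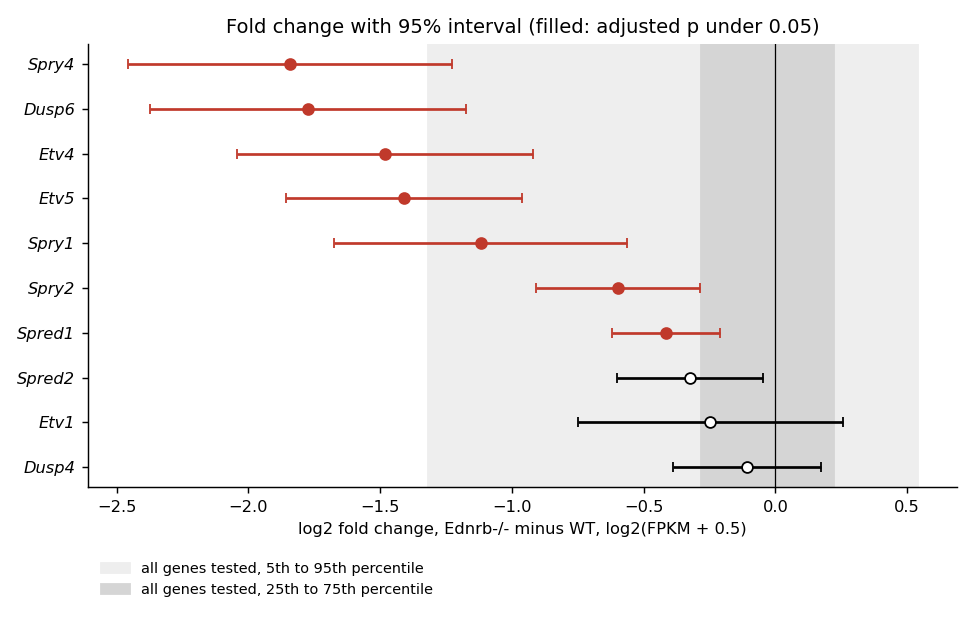
Log2 fold change of each gene, given as Ednrb-/- minus WT in units of log2(FPKM + 0.5) (horizontal axis), with 95% intervals from limma; filled points passed an adjusted p of 0.05, and grey bands span the 5th to 95th and 25th to 75th percentiles of all genes tested. Spry4, Dusp6, Etv4 and Etv5 lie below the 5th percentile, at -1.32, and Dusp4, Etv1 and Spred2 did not pass.

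A gene that passes beside one that does not is not shown to differ from it, so the level of one family member relative to another was compared between genotypes. The 8 differences of log2(FPKM + 0.5) within families were tested by exact two-sided permutation and adjusted over the 8, and 4 passed. Dusp6 minus Dusp4 was -3.59 ± 0.44 in Ednrb-/- and -1.93 ± 0.54 in WT libraries (SD, n = 5 each; exact permutation p = 0.00794, which is the smallest possible here, adjusted p = 0.0212), so Dusp6 fell relative to Dusp4 by 1.67 on the log2 scale. Spry4 minus Spry2 was -3.06 ± 0.42 in Ednrb-/- and -1.82 ± 0.48 in WT libraries, and Etv5 minus Etv1 was 0.78 ± 0.52 in Ednrb-/- and 1.95 ± 0.36 in WT libraries (SD, n = 5 each; exact permutation p = 0.00794, adjusted p = 0.0212 for both). In these 3 pairs all 5 Ednrb-/- libraries lay below all WT libraries.

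Etv4 minus Etv1 was 0.17 ± 0.75 in Ednrb-/- and 1.40 ± 0.38 in WT libraries (SD, n = 5 each; exact permutation p = 0.0159, adjusted p = 0.0317). In this pair 4 of the 5 Ednrb-/- libraries lay below all WT libraries, and the adjusted p was 0.0635 without WT replicate 1, 3, 4 or 5. Spry4 minus Spry1 differed by -0.72 between genotypes and did not pass (exact permutation p = 0.0556, adjusted p = 0.0889). Spry2 minus Spry1 differed by 0.52 (exact permutation p = 0.119, adjusted p = 0.159), Spred2 minus Spred1 by 0.09 (p = 0.556, adjusted p = 0.635) and Etv5 minus Etv4 by 0.07 (p = 0.722, adjusted p = 0.722). These pairs were therefore not shown to change by different amounts. Spry4 made up 5.22 ± 2.45% of the summed FPKM of Spry1, Spry2 and Spry4 in Ednrb-/- and 14.8 ± 4.37% in WT libraries (SD, n = 5 each). Spry3 was not found by name as a single gene model. Etv1 made up 24.9 ± 10.3% of the summed FPKM of Etv1, Etv4 and Etv5 in Ednrb-/- and 11.4 ± 2.90% in WT libraries (SD, n = 5 each).

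**Figure D3:**
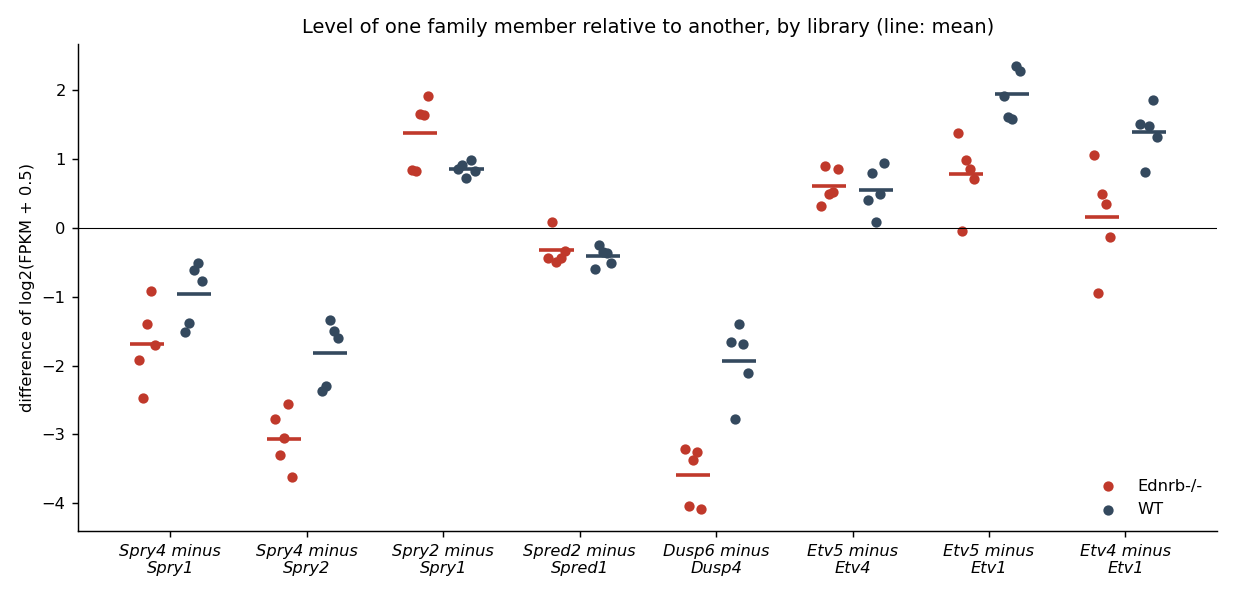
Difference of log2(FPKM + 0.5) between members of a family (vertical axis) in each Ednrb-/- and WT library, with the mean as a line. For Dusp6 minus Dusp4, Spry4 minus Spry2 and Etv5 minus Etv1 the 5 Ednrb-/- points all lie below the 5 WT points, and for Etv5 minus Etv4 the genotypes overlap.

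The order of the levels also differed in places. In Ednrb-/- libraries Dusp4 (137 FPKM) was followed by Spred1 (15.1), Spred2 (12.1), Dusp6 (11.6), Spry2 (9.44), Spry1 (3.53), Etv5 (2.70), Etv4 (1.68), Etv1 (1.36) and Spry4 (0.728), as mean FPKM. Only the steps from Dusp4 to Spred1 and from Spry2 to Spry1 separated neighbours whose ranges did not overlap. In WT libraries the order was Dusp4 (148 FPKM), Dusp6 (39.1), Spred1 (20.2), Spred2 (15.2), Spry2 (14.5), Etv5 (7.85), Spry1 (7.78), Etv4 (5.15), Spry4 (3.91) and Etv1 (1.67), as mean FPKM. There, neighbours overlapped in range for Spred2 and Spry2, for Etv5 and Spry1, for Etv4 and Spry4 and for Spry4 and Etv1. By mean FPKM Dusp6 thus came after both Spred genes in Ednrb-/- and before them in WT libraries. Within single Ednrb-/- libraries it was below both Spred genes only in replicates 2 and 5, whereas it was above both in every WT library.

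The Ednrb-/- libraries did not deviate equally. Centred on the mean of each gene, the 10 genes averaged 0.02 on the log2 scale in Ednrb-/- replicate 1, between -0.72 and -0.47 in Ednrb-/- replicates 2 to 5, and between 0.42 and 0.59 in the WT libraries. Ednrb-/- replicate 1 held the highest value of its genotype for 7 of the 10 genes and the lowest for none. Ednrb-/- replicate 2 held the lowest value for 5 of the genes but the highest for Etv1 and Spred2. WT libraries showed no such order, each holding the highest value for 0 to 3 genes.

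By the root mean square difference between centred log2 profiles over the 10 libraries, the 5 protein-coding genes nearest to the mean profile of the 10 were Plagl1 (0.10), a zinc finger gene, Wtip (0.12), Ppard (0.13), a nuclear receptor gene, Tpbg (0.14) and Wwc1 (0.15). Plagl1 had 25.1 ± 5.10 FPKM in Ednrb-/- and 48.6 ± 5.67 FPKM in WT libraries (SD, n = 5 each). Of the 10 genes themselves, Spry2 (0.27), Spred1 (0.28) and Spry1 (0.30) lay nearest to their mean profile and Spry4 (0.56) farthest. Of the other protein-coding genes compared, 2.41% lay closer to that mean than Spry2, and 51.55% closer than Spry4. Each of the 10 is itself part of the mean. The measure describes likeness over these libraries, most of which is the step between genotypes.

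Markers of several other cell types also differed between genotypes, in both directions. All 10 smooth muscle genes tested were lower in Ednrb-/-, and their summed FPKM ran from 70.9 to 380.5 in Ednrb-/- and from 409.9 to 2968 in WT libraries. All 10 tested genes of the fibroblast-like mesenchyme list were lower as well, with sums of 16.7 to 133 FPKM in Ednrb-/- and 198 to 1071 FPKM in WT libraries. Of the melanocyte list 6 of 7 were lower, with sums of 11.3 to 20.95 FPKM in Ednrb-/- and 71.8 to 216 FPKM in WT libraries, and of the glia and Schwann cell precursor list 7 of 9 were lower and 1 higher. The summed FPKM of that list, most of it Fabp7, ran from 410.0 to 535 in Ednrb-/- and from 259 to 493 in WT libraries. Sox10 is counted in both the melanocyte and the glia lists.

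Of 11 neuronal genes 10 were higher, with sums of 1773 to 2029 FPKM in Ednrb-/- and 1097 to 1421 FPKM in WT libraries. Of 12 neural tube progenitor genes 1 was higher and 2 were lower, near the 6.53% and 13.0% over all genes tested. Their sums ran from 455 to 565 FPKM in Ednrb-/- and from 592 to 738 FPKM in WT libraries. Of this, Vim had 211 ± 24.2 FPKM in Ednrb-/- and 427 ± 67.7 FPKM in WT libraries (SD, n = 5 each). The 3 tested epithelial genes were all lower, with sums of 1.38 to 16.2 FPKM in Ednrb-/- and 22.6 to 66.9 FPKM in WT libraries. Of 3 tested skeletal muscle genes 2 were lower, Des and Acta1. Other genes of these lists, chosen with values known, did not reach the filter. Of them, Myod1 was at most 0.218, Myf5 at most 0.0311 and Myog at most 1.28 FPKM in any library. Trp63 was at most 0.0795, Cdh1 at most 0.668 and Epcam at most 0.960 FPKM. Of 3 tested endothelial genes 1 was lower, Kdr, a VEGF receptor gene, with 0.706 ± 0.424 FPKM in Ednrb-/- and 4.27 ± 3.23 FPKM in WT libraries (SD, n = 5 each; limma, log2 fold change -1.79, adjusted p = 0.0180). The sums of the 8 endothelial genes ran from 1.35 to 2.51 FPKM in Ednrb-/- and from 2.27 to 10.9 FPKM in WT libraries. Cdh5, a defining endothelial gene chosen with its values known, was at most 0.330 FPKM. Of the macrophage and blood list only Cd68 was tested and it did not pass, and the sums ran from 0.174 to 2.02 FPKM in Ednrb-/- and from 0.804 to 2.32 FPKM in WT libraries. Also chosen with values known, Ptprc was at most 0.0304 FPKM, and Tyrobp, C1qa and Hba-a1 were at 0 in every library. The part of these cell types in the levels of the 10 genes was not tested.

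The smooth muscle mean gives a closer look, since the genotypes met on it. On the log2(FPKM + 0.5) scale it was 4.05 in Ednrb-/- replicate 4, the highest of its genotype, and 4.04 in WT replicate 2, the lowest of its genotype. In that pair of libraries, chosen after their values were seen, Etv5 had 2.21 FPKM in Ednrb-/- replicate 4 and 8.39 FPKM in WT replicate 2. Etv4 had 1.40 FPKM in the Ednrb-/- library and 4.63 FPKM in the WT one, Spry1 had 2.39 and 6.96 FPKM in the same order, Spry4 had 1.03 and 2.37 FPKM, and Dusp6 had 16.1 and 26.9 FPKM. All 5 were lower in the Ednrb-/- library of this pair, which is 1 library of each genotype and gives no test. The pair still differed in the mean of the melanocyte and glial lists, at 2.12 in the Ednrb-/- library and 3.63 in the WT one on the log2 scale. Means of other lists differed too, such as fibroblast-like mesenchyme (2.7 and 3.3 in the same order) and neurons (6.4 and 5.8). Among WT libraries Spry4 and Dusp6 were highest in replicate 3, which had the highest smooth muscle mean (6.75), and lowest in replicate 2. Etv5 was lowest in WT replicate 3.

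When limma was given the smooth muscle mean as a covariate, no gene in the whole table passed (1196 at an unadjusted p under 0.05), and none of the 10. The log2 fold changes in that fit were -1.39 for Etv5, with an unadjusted p of 0.00468 and an adjusted p of 0.590, -1.06 for Etv4 (adjusted p = 0.620), -0.89 for Dusp6 (adjusted p = 0.637), -0.82 for Spry4 (adjusted p = 0.638), -0.61 for Spry1, -0.51 for Spry2 and -0.34 for Spred1. The value of Etv5 was close to that without the covariate. Those of Dusp6, Spry4 and Spry1 were smaller by more than 1.5 times on the log2 scale. The smooth muscle mean lay almost apart by genotype, at 2.08 to 4.05 in Ednrb-/- and 4.04 to 6.75 in WT libraries. This fit therefore hardly separates that mean from genotype, and why the genes differed in it was not tested. With the mean of the melanocyte and glial lists as a covariate, again no gene passed (254 at an unadjusted p under 0.05), and the log2 fold changes were -0.59 for Etv5, -0.85 for Etv4, -1.10 for Dusp6 and -1.77 for Spry4 (adjusted p = 0.999 for each). No WT library had as low a mean of these lists as any Ednrb-/- library, the ranges being 1.40 to 2.12 in Ednrb-/- and 3.17 to 4.26 in WT on the log2 scale, so genotype and that mean cannot be told apart.

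**Figure D4:**
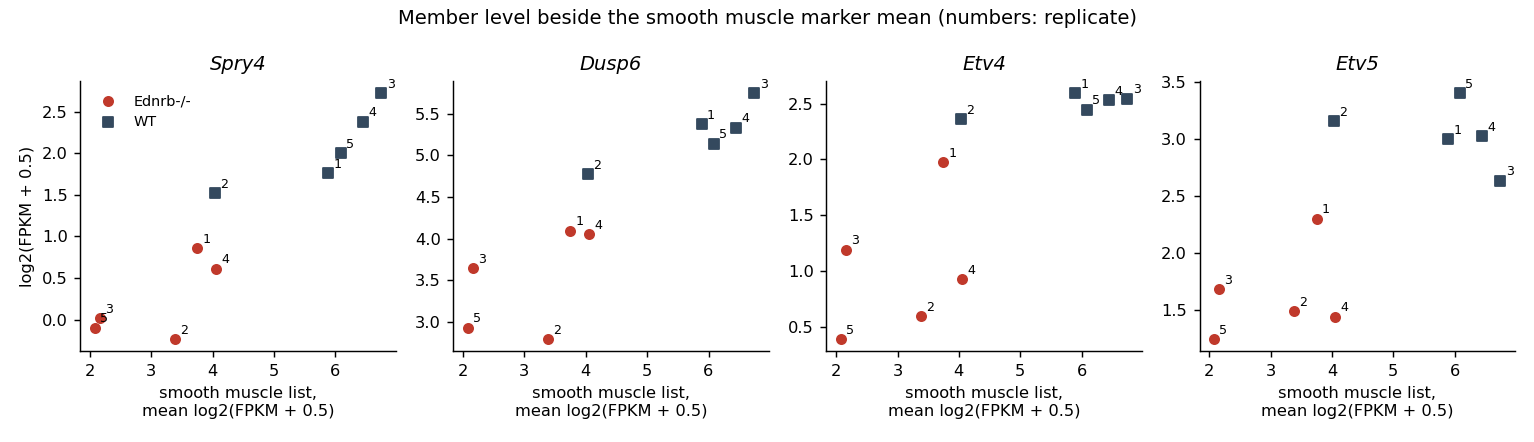
Log2(FPKM + 0.5) of Spry4, Dusp6, Etv4 and Etv5 (vertical axes) against the mean of the 10 tested smooth muscle genes on the same scale (horizontal axes), 1 point per library, numbered by replicate. Ednrb-/- replicate 4 and WT replicate 2 share a smooth muscle mean of about 4.0, and each of the 4 genes is lower in the Ednrb-/- library of that pair.

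Other genes of the pathway, from lists written with earlier results of these data known, were described with the same fit. Of 16 tested feedback inhibitors outside the 10 genes, 6 were lower and 1 was higher, with a median log2 fold change of -0.35. Lrig3, which encodes a leucine-rich repeat membrane protein, had 3.50 ± 1.51 FPKM in Ednrb-/- and 15.5 ± 6.11 FPKM in WT libraries (SD, n = 5 each; limma, log2 fold change -2.01, adjusted p = 0.00276). Phlda1 fell by 0.87, and so did Il17rd, whose product (Sef) inhibits FGF signalling, by 0.88 on the log2 scale (limma, adjusted p = 0.00368 and 0.00448). Named after their values were seen, the ERK phosphatase gene Dusp5, the phosphatase gene Dusp9 and Flrt3 fell by 1.37, 0.93 and 0.78 (limma, adjusted p = 0.00570, 0.00715 and 0.00626). Dusp8, a phosphatase gene whose product acts mainly on JNK and p38, rose to 69.0 ± 5.08 FPKM in Ednrb-/-, against 51.9 ± 3.39 FPKM in WT libraries (SD, n = 5 each; limma, log2 fold change 0.41, adjusted p = 0.00525). Of the 16, 9 did not pass. Among them, also named with values known, were Dusp1 (-0.05) and Errfi1 (-0.32) (limma, adjusted p = 0.779 and 0.273).

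In the cascade itself, of 25 genes from adaptors to ERK substrates 4 were lower and 2 higher, with a median log2 fold change of -0.07. These shares of the list are near the 13.0% lower and 6.53% higher over all genes tested. The adaptor gene Shc1 fell by 1.66 on the log2 scale, the phosphatase gene Ptpn11 by 0.40 and the ERK substrate kinase gene Rps6ka3 by 0.40 (limma, adjusted p = 0.00412, 0.0147 and 0.0302). Mapk3, the gene of the kinase ERK1, had a log2 fold change of -0.02 and did not pass (limma, adjusted p = 0.894); it was chosen with its values known. Of 6 tested genes of Ras GTPase activators 1 was lower, Rasa3, by 1.04 (limma, adjusted p = 0.00276). Nf1, the partner of the Spred proteins, had a log2 fold change of -0.13 (limma, adjusted p = 0.589).

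Upstream, 7 of 19 tested receptor tyrosine kinase genes were lower and 1 was higher, with a median log2 fold change of -0.37. The neuregulin receptor gene Erbb3 fell by 2.22, its partner gene Erbb2 by 0.99, Egfr by 1.34 and Fgfr1 by 0.52 (limma, adjusted p = 0.00310, 0.00485, 0.0139 and 0.0132). The 1 that was higher was Fgfr3, named with its values known, which rose by 0.65 (limma, adjusted p = 0.0196). Erbb3, Kdr and Kit, the last named with its values known, are also in the cell type lists above, so those counts share genes with this one. Of 16 tested ligand genes 9 were lower and none was higher, with a median of -1.26, among them Pdgfc (-1.70), Gdnf (-1.39), Igf2 (-1.38) and Pdgfa (-1.32) (limma, adjusted p = 0.00276, 0.00336, 0.00329 and 0.00459). Of the 33 listed ligand genes found among the deposited gene models, 17 did not pass the filter, so ligand genes at low levels are not covered.

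Other genes that ERK induces were lower in 7 of 12 cases and higher in none, with a median of -1.23. The early response gene Egr1 fell by 1.79, Ier2 by 0.82, Myc by 0.73 and the Eph receptor gene Epha2 by 2.54 on the log2 scale (limma, adjusted p = 0.00614, 0.00448, 0.00814 and 0.00457). Ccnd1, the gene of cyclin D1, named after its values were seen, had a log2 fold change of -0.17 (limma, adjusted p = 0.571). Among 12 tested Ets factors outside the PEA3 group, 7 were lower and none higher, with a median of -0.57. They included Ets1 (-2.77), Elk3 (-2.08), Elf4 (-2.03) and Erf (-1.44), the last a repressor that ERK inactivates (limma, adjusted p = 0.00275, 0.00852, 0.00305 and 0.00448).

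**Figure D5:**
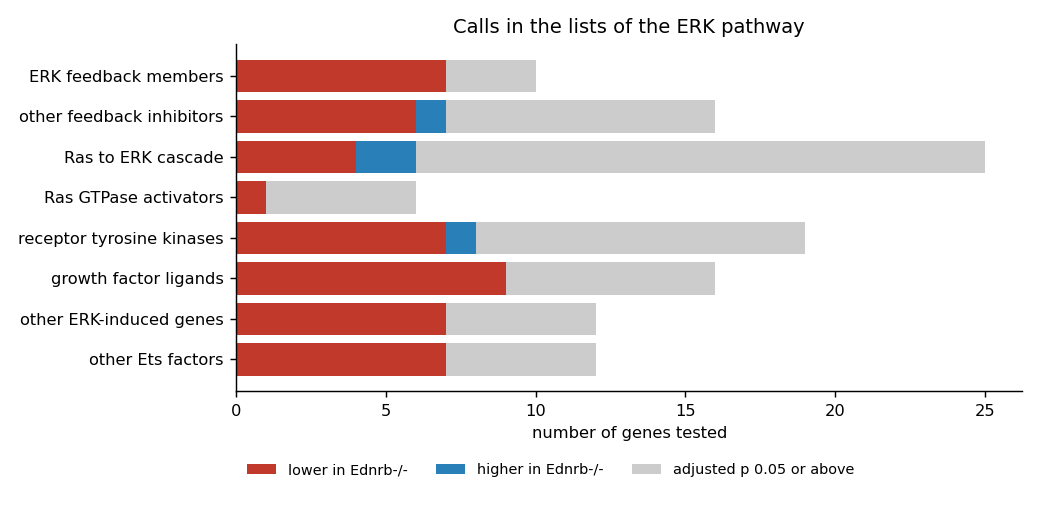
Number of genes tested in each list of the ERK pathway (horizontal axis), split into genes lower in Ednrb-/-, higher in Ednrb-/- and not passing an adjusted p of 0.05. Of the 10 ERK feedback genes 7 were lower, and of the 25 cascade genes 4 were lower and 2 higher; differences between lists were not tested.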

How the data were processed

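RNA sequencing libraries of 10 mouse neural tube explant cultures, 5 Ednrb-/- and 5 WT, were analysed from 1 table of FPKM values deposited by the authors, with 1 column per library. Per the submitters' processing notes, fastp, HISAT2 2.0.5 and featureCounts 1.5.0-p3 were used with mm10, while the gene identifiers are those of the C57BL/6NJ strain, so coordinates are printed as the file gives them. Whether counting used strand is not stated in the sources used. Multiplied by gene length, 100% of the FPKM values were whole multiples of 1 read within 0.01 of a read. The library size implied by the FPKM values was not the sum of these reads. It ran from 0.953 (replicate 3) to 1.032 (replicate 1) times that sum in WT libraries. In Ednrb-/- libraries it ran from 1.000 to 1.023 times the sum.

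The test was limma 3.58.1 in R 4.3.3 on log2(FPKM + 0.5), genotype alone, with a trend in the prior variance, two-sided, over the 15156 genes that reached 0.5 FPKM in 5 or more libraries. All 10 ERK feedback genes passed this filter. The scale understates changes of low genes. Genes are said to rise or fall where their adjusted p was under 0.05. Pairs of libraries of a genotype correlated at 0.925 to 0.979 across genes on the log2 scale and had a mean chi-square of at least 15.7 per gene, so none was a repeat.

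The 10 genes and all lists were chosen with earlier results of these data known. Named are the 10 genes, Ednrb, in each pathway list up to 4 tested genes with the lowest p, the markers most abundant in their lists, and the 5 genes nearest in profile; any other gene is marked as named with its values known. A gene that this rule names in the cascade list is not reported here.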

Additional observations from a re-analysis of the deposited data

Results flagged for a closer look

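Each of the 10 genes was examined in each genotype for a library far from the others, 20 groups of 5 libraries in all, by Dixon's ratio of the gap to the range with a critical value of 0.71. A single one was found, where chance flags about 1 in 20 groups. Spred1 in Ednrb-/- replicate 1, at 18.7 FPKM, stood above the other 4 Ednrb-/- libraries, which lay between 13.6 and 14.7 FPKM, with a ratio of 0.801. Without that library the log2 fold change of Spred1 was -0.49 (limma, adjusted p = 0.00393).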

How the results depend on the processing

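The count of called ERK feedback genes, 7 of 10, was between 7 and 8 without any 1 library, 8 with array weights, and 7 with a pseudocount of 0.1 or 1, without a filter, with a stricter filter, under TPM rescaling, quantile or median-ratio scaling, with voom on recovered reads, without a trend and over protein-coding genes only, the last chosen after seeing the data. It was 0 with the smooth muscle mean or the pigment and glia mean as a covariate, where the count over all genes was also 0; the cause was not tested. Over all genes, 2956 changed, and between 1898 (without WT replicate 3) and 3240 (without WT replicate 2) in fits without 1 library, with 1912 when WT replicate 4 was left out and 1902 when WT replicate 5 was.

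Replicate numbers were not used as pairs, as the labels do not say that they pair libraries. Deviations of same-numbered libraries correlated at between -0.163 and 0.153, and 0 of the 5 Ednrb-/- libraries correlated best with their own number. These correlations cannot settle whether same-numbered libraries shared a litter or batch. With the replicate number as a block, 1877 genes and 6 of the 10 changed, and Spred1 did not pass (limma, adjusted p = 0.0570).

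Of the 8 differences within families 4 passed as reported, and between 3 and 4 without any 1 library. Low read numbers limit Spry4 most, with 21 reads in its lowest library, and the pseudocount moved its log2 fold change to -2.34 at 0.1 and to -1.49 at 1.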
